A study of Homo sapiens with 16 samples.

Results

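The 9 genes MICA, MICB, ULBP1, ULBP2, ULBP3, PVR, PVRL2, NCR3LG1 and CD274 encode ligands through which natural killer (NK) cells and T cells read a myeloma cell. They were found by symbol among the 23354 genes of the count table, where all 9 were present, and 6 of them were among the 14215 genes that passed the filter on low counts and were tested. PVRL2 is given below under its current symbol, NECTIN2. RNA-seq of total RNA depleted of ribosomal RNA was done in MM1S, a human multiple myeloma line sensitive to dexamethasone (Dex, a synthetic glucocorticoid), and in MM1R, its Dex-resistant counterpart. Each line received vehicle, TAK-981 (an inhibitor of the SUMO-activating enzyme, E1) at 0.1 μM, Dex at 1 μM, or both drugs at these doses (combo). The treated cells were taken at 48 h, and each of the 8 groups of line and treatment holds 2 libraries. Each line stands for 1 culture model of sensitivity or resistance, so a difference between MM1R and MM1S is a difference between these lines, and nothing states that the 2 libraries of a group came from separate cultures. The p-values therefore measure the spread between libraries of a group, which may be technical and was estimated over all 8 groups together.

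MICA, MICB and the ULBP proteins are stress-induced relatives of MHC class I molecules and bind NKG2D, an activating receptor of NK cells and of CD8+ T cells. PVR (CD155) and NECTIN2 (CD112) bind DNAM-1 (CD226), which activates NK cells, and also TIGIT, which restrains them. NCR3LG1 (B7-H6) binds the activating receptor NKp30. CD274 encodes PD-L1, which engages PD-1 and dampens T cells, and plasma cells of myeloma can carry ligands of both kinds.

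Total counts ran from 15707587 to 24796539 per library. All 10 plasma cell markers searched were expressed, with a summed level of 5037 to 11359 CPM (counts scaled to a common library size with TMM factors), against 2.58 to 6.42 CPM for 8 T and NK cell markers and 1.61 to 6.74 CPM for 7 myeloid and stromal markers. Of the T and NK cell markers 2 were at 0 in every library. As these are bulk libraries, less RNA per cell and fewer cells that carry a transcript cannot be told apart.

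The promoters of the genes on which the results below turn are shown first. MICA and MICB are neighbouring paralogs that were both lower after Dex in MM1S, and CD274 was the member that was higher after TAK-981 in both lines. The sequences are RefSeq's (GRCh38.p14, plus strand, 250 bases before and 50 from the listed start site on) and come from chr6:31403345-31403644, chr6:31497895-31498194 and chr9:5450292-5450591. Capitals mark matches on either strand to 9 short motifs, of which 5 occur here.
MICA: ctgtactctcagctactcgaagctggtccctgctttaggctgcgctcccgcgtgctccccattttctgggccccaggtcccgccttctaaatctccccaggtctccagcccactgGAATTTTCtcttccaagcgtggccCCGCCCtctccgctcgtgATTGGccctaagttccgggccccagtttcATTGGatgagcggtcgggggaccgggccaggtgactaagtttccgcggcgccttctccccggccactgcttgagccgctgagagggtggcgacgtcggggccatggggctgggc
MICB: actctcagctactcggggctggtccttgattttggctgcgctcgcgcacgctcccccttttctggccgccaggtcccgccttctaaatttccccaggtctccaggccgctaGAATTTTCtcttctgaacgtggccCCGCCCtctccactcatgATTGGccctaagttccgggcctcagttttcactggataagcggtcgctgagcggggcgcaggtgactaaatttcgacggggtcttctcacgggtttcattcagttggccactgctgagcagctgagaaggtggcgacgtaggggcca
CD274: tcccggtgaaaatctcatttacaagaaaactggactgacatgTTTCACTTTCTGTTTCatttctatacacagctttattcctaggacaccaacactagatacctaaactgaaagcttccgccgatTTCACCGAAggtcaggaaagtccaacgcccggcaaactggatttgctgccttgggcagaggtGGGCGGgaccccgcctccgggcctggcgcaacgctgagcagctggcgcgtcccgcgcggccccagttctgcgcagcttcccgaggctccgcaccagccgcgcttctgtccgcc

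Over a global alignment of 316 columns, the MICA and MICB promoters had 78.2% identical bases. Both hold GAATTTTC, a match to the heat shock element unit GAANNTTC, at −135 from the start in MICA and at −139 in MICB. Among the 35116 promoters of this length known to RefSeq, 6.77% hold this unit, and of the 9 ligand genes only MICA and MICB do. Both also hold a GC box (GGGCGG, 45% of all promoters), read on the other strand as CCGCCC, and the CCAAT box (CCAAT, 34.6%), read as ATTGG, with 1 match in MICB and 2 in MICA. In CD274, 2 overlapping matches to the interferon regulatory factor element (GAAA, any 2 bases, GAAA, in 3.57% of all promoters) lie on the other strand, at −208 and −202. The CD274 promoter also holds TTCACCGAA, a match to the gamma-activated site TTCNNNGAA (7.66%), at −125, and a GC box. None of the 9 promoters held the glucocorticoid receptor palindrome ACANNNTGT (5.37% of all promoters), the E-box CACGTG (7.26%) or the second heat shock unit TTCNNGAA (7.74%) in these windows. AP-1 sites (TGANTCA, 7.71%) were found in ULBP2 and ULBP3, and PVR held none of the 9 motifs. RefSeq's gene spans begin 2884 bases before this start in MICA and 3227 in MICB, so other transcripts start outside the windows shown.

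The levels of the 9 genes in vehicle-treated cells were ordered by CPM per kb of gene length, the scale on which genes can be compared. MICB stood highest, at 21.2 ± 1.69 CPM per kb in MM1S and 27.2 ± 0.955 CPM per kb in MM1R (SD over 2 libraries, as for all levels below). In MM1S 78% of the tested genes were lower on this scale and in MM1R 82.2%. PVR followed at 6.44 ± 0.59 and 7.99 ± 0.141 CPM per kb, and MICA at 3.91 ± 0.0936 and 3.34 ± 0.0808. CD274 was lower, at 0.636 ± 0.19 CPM per kb in MM1S and 1.04 ± 0.0521 in MM1R, above 16.7% and 22.5% of the genes. ULBP3 was at 0.176 ± 0.0809 and 0.448 ± 0.0156 CPM per kb. In every one of these steps both libraries of the higher gene lay above both of the lower gene in each line.

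The other 4 members were close to or at the counting floor. NCR3LG1 had 2 to 12 counts per library (108 in all 16) and was at 0.0502 ± 0.00853 CPM per kb in vehicle-treated MM1S cells. ULBP1 had 0 to 9 counts (66 in all) and NECTIN2 0 to 7 (32 in all), and neither passed the filter. The order of these 3 genes below ULBP3 changed between the lines, and the libraries of NCR3LG1 and NECTIN2 overlapped in both. ULBP2 had 0 counts in all 16 libraries, which allows at most 0.124 to 0.186 CPM in a library, the level of 3 counts. These limits cover counting error only. ULBP1 showed 5 and 5 counts in vehicle-treated MM1S cells and 2 and 2 in MM1R, and 6 and 6 after TAK-981 in MM1R, numbers too low for a test. RAET1E, RAET1G and RAET1L, which encode the remaining NKG2D ligands of the ULBP family, were at 0 counts in every library. The genes of the MIC and ULBP families share sequence, so reads could be split between copies or left uncounted, and whether strand was used in counting is not given in the sources used here.

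**Figure D1:**
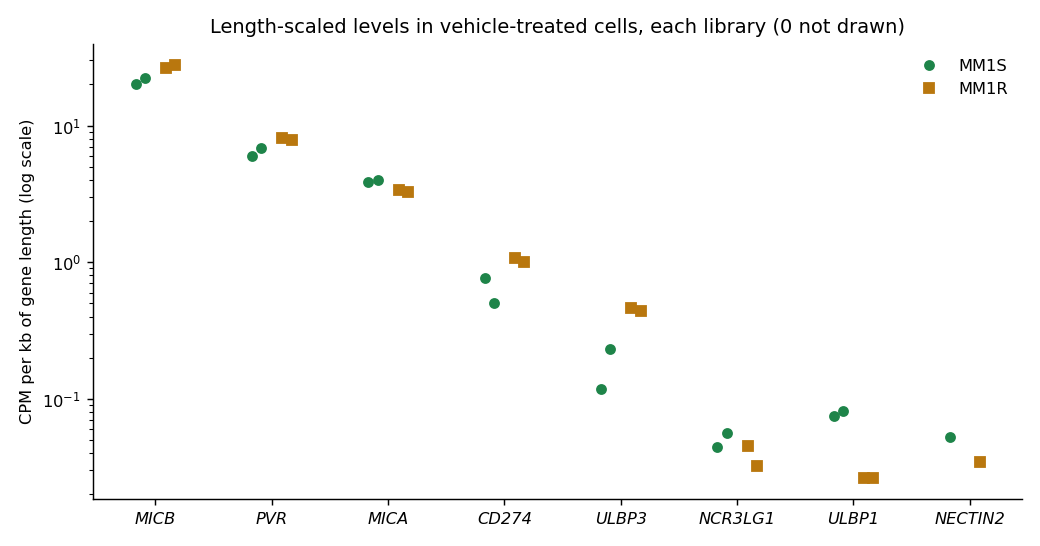
Level of each ligand gene in the 4 vehicle-treated libraries, in CPM per kb of gene length on a log axis, with circles for MM1S and squares for MM1R. MICB is highest in both lines, and ULBP2, at 0 counts in every library, is not drawn.

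The count table places MICA on chromosome 6 from 31367561 to 31383090 and MICB on the same chromosome from 31462658 to 31478901 (hg19, plus strand for each). In vehicle-treated MM1S cells MICB was at 57.4 and 64.2 CPM, after TAK-981 at 46.1 and 50.1, after Dex at 33.5 and 33.1, and after combo at 30.9 and 29.9. In MM1R the 8 libraries of MICB lay between 72.5 and 82.4 CPM, and those of vehicle overlapped with those of each treatment. MICA was at 9.07 and 9.38 CPM in vehicle-treated MM1S cells, at 8.61 and 8.44 after TAK-981, 5.34 and 6.2 after Dex, and 6.69 and 7.75 after combo. Dex thus gave the lowest MICA libraries in MM1S and combo the lowest MICB libraries. In MM1R MICA was at 8.02 and 7.75 CPM in vehicle-treated cells and at 6.98 and 6.45 after TAK-981. After Dex it was at 8.87 and 9.12 CPM, and after combo at 6.75 and 8.24, so that only the combo libraries spanned those of other groups.

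PVR lies on chromosome 19 from 45147098 to 45169428 (plus strand, hg19). Its MM1S libraries were at 36.7 and 41.7 CPM with vehicle, 37.4 and 35.9 with TAK-981, 28.9 and 28.8 with Dex, and 22.2 and 27.4 with combo. In MM1R they were at 49.2 and 48 CPM with vehicle, 37.6 and 36 with TAK-981, 44.4 and 48.6 with Dex, and 37.9 and 35.4 with combo. In MM1S the vehicle and TAK-981 libraries overlapped and the Dex and combo libraries lay below them, while in MM1R the libraries that received TAK-981, alone or in combo, lay below the others. CD274 lies on chromosome 9 from 5450503 to 5470567 (plus strand, hg19). It had 67 and 40 counts in vehicle-treated MM1S cells (3.15 and 2.05 CPM), 107 and 71 after TAK-981 (5.55 and 3.65 CPM), 23 and 26 after Dex (1.19 and 1.31 CPM), and 41 and 37 after combo (2.54 and 2.03 CPM). The MM1R libraries were at 4.38 and 4.08 CPM with vehicle, 8.21 and 8.08 with TAK-981, 3.8 and 4.71 with Dex, and 8.29 and 8.57 with combo. PD-L1 mRNA was thus highest where TAK-981 was present in MM1R and lowest after Dex in MM1S.

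ULBP3 lies on chromosome 6 from 150383341 to 150390283 (minus strand, hg19). It had 5 and 9 counts with vehicle, 10 and 7 with TAK-981, 10 and 10 with Dex, and 3 and 7 with combo in MM1S. In MM1R its counts were 22 and 21 with vehicle, 27 and 27 with TAK-981, 19 and 21 with Dex, and 22 and 33 with combo. Every MM1R library of ULBP3 thus had more counts than any MM1S library. NCR3LG1 lies on chromosome 11 from 17373309 to 17398868 (plus strand, hg19) and had 6 and 7 counts with vehicle in MM1S and 7 and 5 in MM1R. ULBP1 (chromosome 6, 150285143 to 150294846), ULBP2 (chromosome 6, 150263136 to 150270368) and NECTIN2 (chromosome 19, 45349393 to 45392485) all lie on the plus strand. NECTIN2 had 4 and 0 counts with vehicle in MM1S and 3 and 0 in MM1R, and was found in 11 of the 16 libraries.

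**Figure D2:**
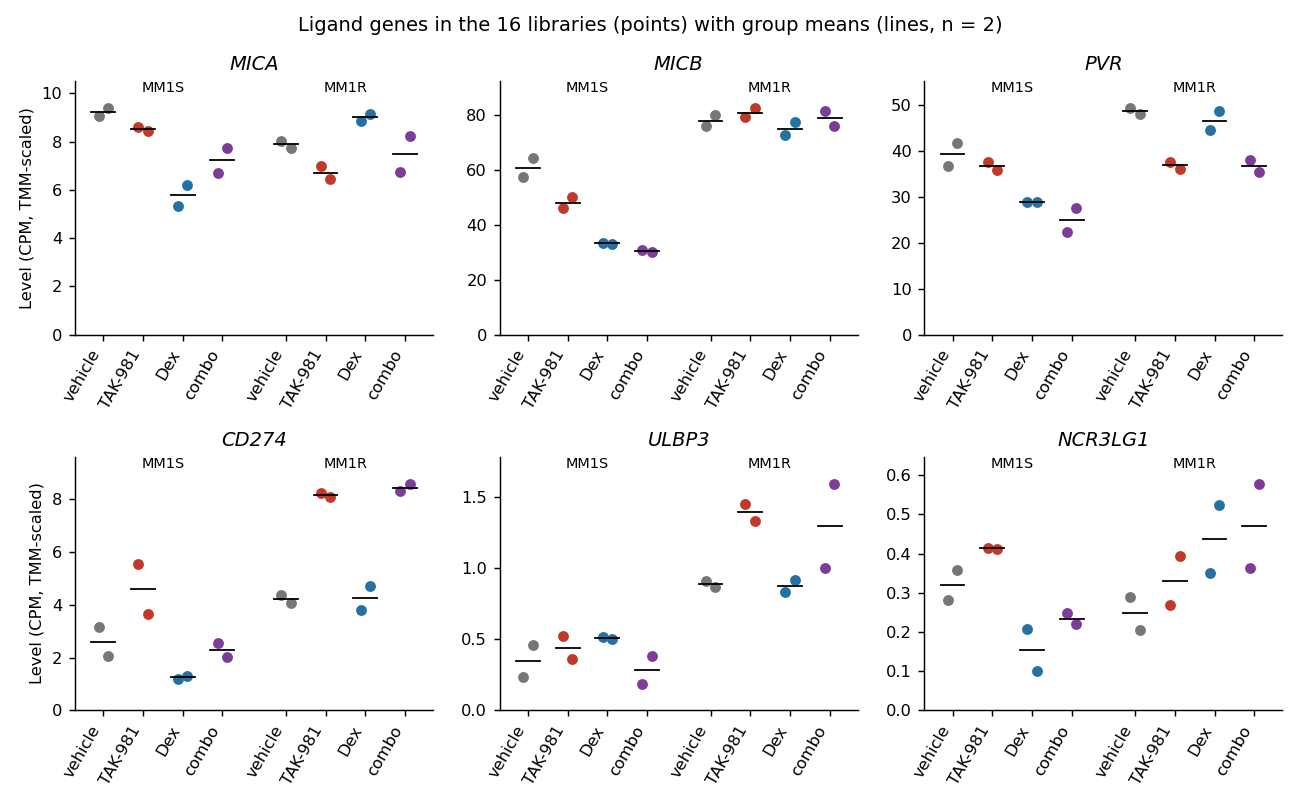
Level of the 6 tested ligand genes in CPM in each of the 16 libraries (points, coloured by treatment) with the group means (lines, n = 2), MM1S on the left of each panel and MM1R on the right. MICA, MICB, PVR and CD274 fall with Dex in MM1S, and CD274 rises with TAK-981 in both lines.

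To see what SUMO E1 inhibition did to the ligands, TAK-981 was compared with vehicle by edgeR's quasi-likelihood F test, and p-values were adjusted by Benjamini-Hochberg across the whole tested set. CD274 was the tested member that rose in both lines. For MM1S the log2 fold change was 0.81 (standard error 0.216, adjusted p = 0.00446), an increase of 75.5%. The corresponding value in MM1R was 0.94 (standard error 0.176, adjusted p = 0.000198), an increase of 92.3%. The MM1S call rested on single libraries. With vehicle replicate 2 left out the value was 0.54 (adjusted p = 0.0823), with TAK-981 replicate 1 left out 0.48 (adjusted p = 0.109), and over all libraries left out in turn it ran from 0.48 to 1.16. In MM1R it ran from 0.89 to 0.99 and kept its call in each.

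The activating ligands did not rise past the threshold in either line. MICB fell by 0.34 on the log2 scale in MM1S (standard error 0.0731, adjusted p = 0.000839), so that its level dropped by 20.9%, and gave 0.05 in MM1R (95% confidence interval −0.09 to 0.20, adjusted p = 0.547). PVR fell by 0.40 in MM1R (standard error 0.0886, adjusted p = 0.000909), so that its level dropped by 24.4%, and gave −0.10 in MM1S (−0.29 to 0.10, adjusted p = 0.408). For MICA the estimate was −0.11 in MM1S (95% confidence interval −0.37 to 0.14) and −0.23 in MM1R (−0.50 to 0.03), with adjusted p = 0.467 and 0.129. ULBP3 gave 0.35 in MM1S (95% confidence interval −0.68 to 1.38, adjusted p = 0.593). In MM1R it gave 0.64 (0.01 to 1.27, unadjusted p = 0.0476, adjusted p = 0.0819), so a rise there is not excluded. NCR3LG1 gave 0.37 in MM1S and 0.42 in MM1R (adjusted p = 0.586 and 0.546). In all, 2 of 6 members passed the threshold in each line, 1 higher and 1 lower, where 49% of all genes passed it in MM1S, 25.2% upward and 23.7% downward, and in MM1R 53.4%, 25.8% upward and 27.6% downward. The median log2 fold change of the 6 was 0.13 in MM1S and 0.24 in MM1R, beside 0.04 and 0.00 for all genes. These medians depend on ULBP3 and NCR3LG1, which had at most 33 and 12 counts in a library. No shift of the ligands as a set is read from them. In MM1R the summed plasma cell markers were at 11295 and 11359 CPM with vehicle and 9666 and 9671 CPM with TAK-981, the T and NK cell markers at 5.46 and 5.61 and at 3.45 and 3.60 CPM, and the myeloid and stromal markers at 3.76 and 4.08 and at 5.12 and 6.07 CPM. In MM1S the plasma cell markers were at 7984 and 8554 CPM with TAK-981, against 8805 and 8839 CPM with vehicle. These sums do not stand for each marker. Of the 10 plasma cell markers 4 rose and 3 fell in MM1S, and 3 rose and 4 fell in MM1R. The part of these shifts in the ligand values was not tested.

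How far the TAK-981 response differed between the lines was tested as an interaction, which passed the threshold for MICB alone among the 6. It was 0.39 (standard error 0.101, adjusted p = 0.0338), with the response lower in MM1S. Across all genes 4.16% passed that test, 3.19% with the higher response in MM1R. The call was lost when only the 4 groups concerned were fitted (0.40, adjusted p = 0.064) and in 7 of the 16 fits with 1 library left out, where the value ran from 0.31 to 0.47. Those 7 left out MM1S vehicle replicate 2 or any 1 of the MM1R vehicle, TAK-981 or combo libraries. For PVR the interaction was −0.31 (adjusted p = 0.172) and for CD274 0.13 (95% confidence interval −0.46 to 0.72), so that a difference between the lines was not shown for either.

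In MM1S Dex lowered ligands of both kinds. The Dex and TAK-981 comparisons of a line share its vehicle libraries. Against vehicle, MICB fell by 0.87 on the log2 scale (standard error 0.0752, adjusted p = 3.02e-08), so that its level dropped by 45.2%, and MICA by 0.67 (standard error 0.129, adjusted p = 0.000349), so that its level dropped by 37.4%. PVR fell by 0.44 (standard error 0.0923, adjusted p = 0.000801). The fall of CD274 was 1.06 (standard error 0.279, adjusted p = 0.00496). For these 4 genes both Dex libraries lay below both vehicle libraries. The groups of ULBP3 and NCR3LG1, which were not called, did not overlap either. The share of all genes without overlap was not computed, so this is description only. The CD274 call was lost without vehicle replicate 1, at −0.71 (adjusted p = 0.124), and ran to −1.33 with other libraries left out, while MICA, MICB and PVR kept theirs without any 1 library. ULBP3 gave 0.56 and NCR3LG1 −1.03 (adjusted p = 0.362 and 0.211), each with wide intervals at its low counts. Thus 4 of 6 members fell and 0 rose, where 42.3% of all genes changed, 20.8% rising and 21.5% falling. The median of the 6 was −0.77, and that of all genes 0.01. The summed plasma cell markers were at 8805 and 8839 CPM with vehicle and 5853 and 5987 CPM with Dex, and the myeloid and stromal markers at 4.51 and 5.33 and at 1.61 and 1.87 CPM. The T and NK cell markers stood at 4.37 and 4.72 CPM with vehicle and 3.68 and 4.04 CPM with Dex, and the part of these shifts in the ligand changes was not tested.

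None of the 6 members passed the threshold for Dex in MM1R by edgeR or DESeq2, and 0 had an unadjusted p under 0.05. Across all genes 0 of 14215 (0%) passed by either tool and 395 had an unadjusted edgeR p under 0.05. The estimates were 0.19 for MICA (95% confidence interval −0.06 to 0.44), −0.05 for MICB (−0.20 to 0.09), −0.07 for PVR (−0.25 to 0.12) and 0.01 for CD274 (−0.39 to 0.41). An interaction test of line and Dex passed the threshold for all 4 of these genes. It was 0.86 for MICA (adjusted p = 0.00106), 0.81 for MICB (adjusted p = 7.57e-06), 0.38 for PVR (adjusted p = 0.0327) and 1.07 for CD274 (adjusted p = 0.0242), where 28.1% of all genes passed, 15% with the higher response in MM1R and 13.1% with the lower. MICA and MICB kept this call with any 1 library left out. PVR lost it in 6 of the 16 such fits, with the value from 0.28 to 0.47, and CD274 in 5, from 0.72 to 1.34. PVR lost it without either library of MM1S Dex or MM1R vehicle, without MM1S vehicle replicate 2, or without MM1R Dex replicate 2. CD274 lost it without either library of MM1S Dex, without MM1S vehicle replicate 1, or without replicate 2 of MM1R vehicle or MM1R Dex. NR3C1, which encodes the glucocorticoid receptor, was at 280 ± 4.35 CPM in vehicle-treated MM1S cells and 18.9 ± 1.41 CPM in MM1R (SD, n = 2 each), and its part in the difference was not tested.

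**Figure D3:**
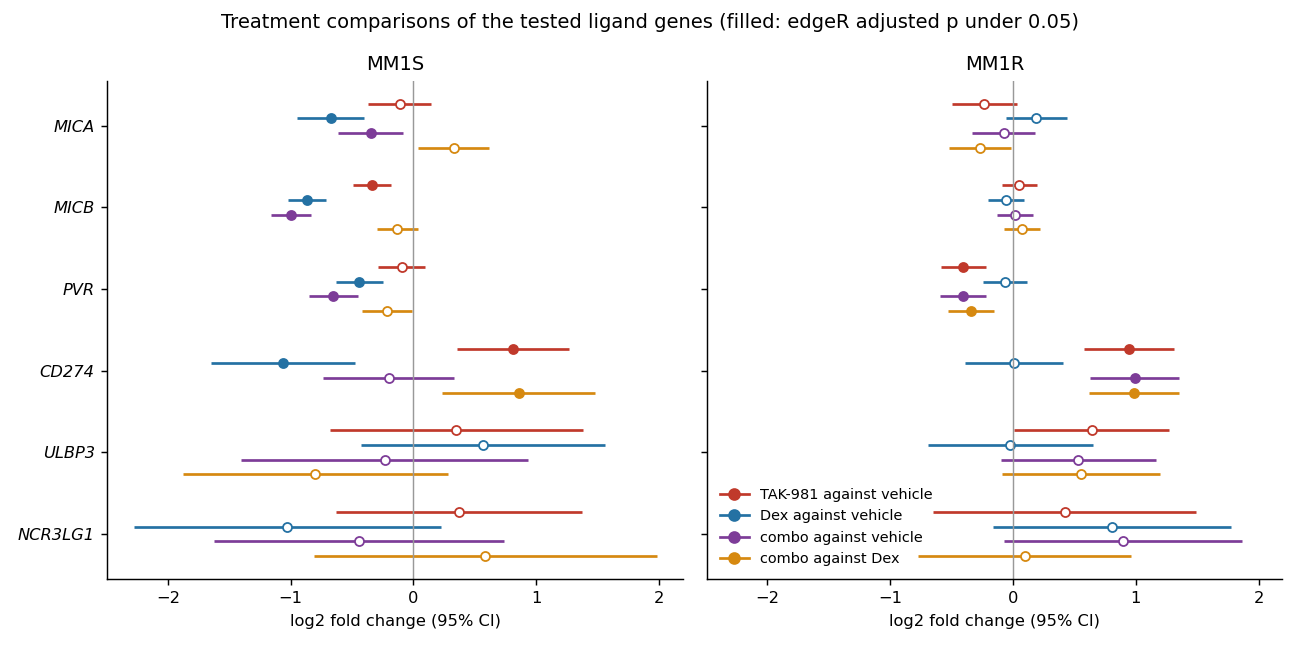
Log2 fold change of the 6 tested ligand genes with its 95% confidence interval in 4 comparisons within each line, MM1S on the left and MM1R on the right, with filled points for an edgeR adjusted p under 0.05. The Dex intervals of MICA, MICB, PVR and CD274 lie below 0 in MM1S and span 0 in MM1R, while CD274 lies above 0 with TAK-981 in both.

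The combination was then read against vehicle and against each drug alone. These comparisons share libraries with those above, so their values are given side by side and not as independent results. Combo against vehicle in MM1S lowered MICB by 1.00 on the log2 scale (standard error 0.0768, adjusted p = 1.99e-09), PVR by 0.65 (standard error 0.0948, adjusted p = 9.17e-06) and MICA by 0.35 (standard error 0.127, adjusted p = 0.0242), so that 3 of 6 members fell and 0 rose, where 60.3% of all genes changed, 30.8% rising and 29.5% falling. With combo in MM1S the summed plasma cell markers were at 5037 and 5056 CPM, the T and NK cell markers at 2.58 and 2.97 CPM and the myeloid and stromal markers at 2.66 and 3.30 CPM, against the vehicle values above, and their part in the ligand changes was not tested. The MICA call was lost with DESeq2 (−0.36, adjusted p = 0.075). It was also lost without vehicle replicate 1 (−0.38), vehicle replicate 2 (−0.33) or combo replicate 1 (−0.25), with an adjusted p of 0.0586, 0.093 and 0.175. CD274 in combo stood at −0.20 against vehicle (95% confidence interval −0.73 to 0.33, adjusted p = 0.507), between the values with Dex and with TAK-981, and without vehicle replicate 1 it was 0.15. In MM1R combo changed CD274 by 0.99 (standard error 0.173, adjusted p = 0.000105) and PVR by −0.41 (standard error 0.088, adjusted p = 0.000817), 2 of 6 members where 51.5% of all genes changed, 24.8% rising and 26.7% falling.

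Added to Dex in MM1S, TAK-981 raised CD274 by 0.86 (standard error 0.297, adjusted p = 0.0236), the 1 member of 6 to pass where 47.6% of all genes did, 22.2% rising and 25.4% falling. This call was lost without Dex replicate 1 (0.79), Dex replicate 2 (0.93) or combo replicate 1 (0.70), with an adjusted p of 0.0876, 0.0665 and 0.158. MICA gave 0.33 (adjusted p = 0.0584, and 0.0426 with library size only) and PVR −0.21 (adjusted p = 0.0805). With combo replicate 2 left out PVR was −0.38 (adjusted p = 0.0126). In MM1R, where the same comparison changed 48.4% of all genes (23.1% rose, 25.3% fell), CD274 rose by 0.98 (adjusted p = 0.000135) and PVR fell by 0.34 (adjusted p = 0.0037), the latter to −0.28 (adjusted p = 0.0521) without Dex replicate 2. MICA gave −0.27 (adjusted p = 0.0766), and −0.42 (adjusted p = 0.0325) without combo replicate 2.

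Added to TAK-981 in MM1S, Dex lowered MICB by 0.66 (adjusted p = 2.09e-06), PVR by 0.56 (adjusted p = 0.000156) and CD274 by 1.01 (adjusted p = 0.00208), 3 of 6 members where 35.1% of all genes changed, 14.5% rising and 20.6% falling. MICA gave −0.24 (adjusted p = 0.172). Each of the 3 calls was kept with any 1 library left out. Both combo libraries of each of the 3 genes lay below both TAK-981 libraries, but so did those of MICA and NCR3LG1, which were not called. The share of all genes without overlap was not computed here either. In MM1R 0 of 6 members passed by edgeR or DESeq2, 0 had an unadjusted p under 0.05, and 0% of all genes passed, with 214 at an unadjusted p under 0.05. CD274 there gave 0.05 (95% confidence interval −0.29 to 0.39).

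Whether the combo value departed from the sum of both single-drug values was tested within each line. In MM1S 0 of 6 members passed by edgeR or DESeq2, where 14.9% of all genes did (5.47% above and 9.48% below the sum, so that 36.6% of those called were above it, and 53.2% with library size only as the scaling), and 1 had an unadjusted p under 0.05. That was MICA, at 0.44 (95% confidence interval 0.05 to 0.82, adjusted p = 0.116), with the combo level above the sum. CD274 gave 0.05 (−0.71 to 0.80), MICB 0.21 (−0.02 to 0.43) and PVR −0.12 (−0.40 to 0.16), each with an interval that takes in both directions. In MM1R 0 of 6 passed by either tool, 0 had an unadjusted p under 0.05, and 0% of all genes passed, with 400 at an unadjusted p under 0.05.

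Without treatment the resistant line held more mRNA of 4 of the 6 members, where 48.2% of all genes differed between the lines, 25.6% higher and 22.6% lower in MM1R. ULBP3 had 22 and 21 counts in vehicle-treated MM1R cells and 5 and 9 in MM1S, a log2 fold change of 1.35 (standard error 0.404, adjusted p = 0.0101). CD274 was 0.69 higher (standard error 0.212, adjusted p = 0.0117), MICB 0.36 (standard error 0.0705, adjusted p = 0.000425) and PVR 0.31 (standard error 0.0879, adjusted p = 0.00679). MICA gave −0.23 (adjusted p = 0.128) and NCR3LG1 −0.36 (adjusted p = 0.624). MICB kept its call with any 1 library left out. Without MM1S vehicle replicate 1 those of ULBP3 (0.93, adjusted p = 0.135) and PVR (0.22, adjusted p = 0.116) were lost. The CD274 call was lost without MM1S vehicle replicate 2 (0.43, adjusted p = 0.174) or MM1R vehicle replicate 1 (0.64, adjusted p = 0.0633), and was 1.04 without MM1S vehicle replicate 1. With DESeq2 the ULBP3 adjusted p was 0.0532. With other single libraries left out ULBP3 ran to 1.89. The higher share of all differing genes was 53.1% here and 43.4% with library size only as the scaling, under which all 4 members stayed higher and past the threshold.

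The genes around the 9 ligands were read from lists of related genes. The counts of each list stand beside shares of all genes, which for TAK-981 were 25.2% higher and 23.7% lower in MM1S and 25.8% higher and 27.6% lower in MM1R, and for Dex in MM1S 20.8% higher and 21.5% lower. Of 5 genes listed as inhibitory ligands of NK cells, 4 rose and 0 fell after TAK-981 in MM1S, and 5 rose in MM1R. The list medians were 0.86 and 0.92, beside the medians of all genes given above. The list name is a label only, as the receptors that these ligands engage were not measured. In MM1R HLA-F, a non-classical MHC class I gene, rose by 1.88 (adjusted p = 5.67e-12), from 17.6 ± 0.87 to 64.6 ± 3.67 CPM (SD, n = 2 each). HLA-E, the ligand of the inhibitory receptor NKG2A, rose by 0.92 (adjusted p = 1.42e-09), from 213 ± 3.02 to 405 ± 4.93 CPM. HLA-G rose by 1.21 (adjusted p = 0.000175), from 37 and 39 counts to 75 and 66. In MM1S these genes rose by 1.30, 0.86 and 0.97 (adjusted p = 6.78e-10, 2.36e-09 and 0.00177). MHC class I genes are close in sequence, and reads of HLA-F and HLA-G may be shared with other loci. After Dex in MM1S 0 of the 5 rose and 2 fell, HLA-F among them at −0.77 (adjusted p = 4.71e-06).

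Of 12 tested B7 and TNF family ligands and related molecules of T cells, 7 rose and 0 fell after TAK-981 in MM1S, and 8 rose and 1 fell in MM1R, where 25.2% and 25.8% of all genes rose. TNFSF9 (4-1BB ligand, a costimulator) rose by 1.17 in MM1S (adjusted p = 1.74e-07), and TNFRSF14, the partner of BTLA, by 0.70 (adjusted p = 2.28e-07). CD86, a ligand of CD28 and CTLA-4, rose by 0.93 in MM1R (adjusted p = 2.53e-09). PDCD1LG2 encodes PD-L2, the other ligand of PD-1, and was chosen after its values were seen. It had 151 and 117 counts in vehicle-treated MM1S cells, 228 and 177 after TAK-981, 63 and 47 after Dex and 87 and 104 after combo. PDCD1LG2 rose with TAK-981 by 0.67 in MM1S and 1.24 in MM1R (adjusted p = 0.000562 and 5.03e-07) and fell with Dex by 1.22 in MM1S (adjusted p = 1.54e-05), the directions of CD274. Dex in MM1S raised 3 and lowered 5 of this list, beside 20.8% and 21.5% of all genes.

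Among 11 other activating and adhesion ligands of NK cells, 7 rose and 3 fell after TAK-981 in each line, the latter a share near the 23.7% and 27.6% of all genes that fell in MM1S and MM1R. ICAM1 and ICAM2, ligands of the integrin LFA-1, rose by 0.96 and 0.79 in MM1S (adjusted p = 1.96e-08 and 2.61e-08). SLAMF6, a self-ligand of the SLAM family, rose by 0.54 in MM1R (adjusted p = 7.63e-06). CD58, CD48 and SLAMF7 had lower mean levels after TAK-981 in both lines. CD58 went from 35.8 to 20.5 CPM in MM1S and from 33.1 to 22.2 CPM in MM1R. In the same order, CD48 went from 361 to 320 and from 329 to 281 CPM, and SLAMF7 from 757 to 631 and from 809 to 701 CPM. Dex in MM1S raised 2 of the 11 and lowered 4, beside 20.8% and 21.5% of all genes. Of the nectins and nectin-like genes other than PVR and NECTIN2, 3 were tested, of which 3 rose in MM1S and 1 in MM1R after TAK-981. NECTIN3 rose by 0.87 and 0.81 in the 2 lines (adjusted p = 2.95e-05 and 7.96e-05). The rise in MM1S of NECTIN1 was 0.37 (adjusted p = 0.00128) and that of CADM1, the ligand of CRTAM, 0.30 (adjusted p = 0.00177). A difference between the lines was not shown for NECTIN1 (interaction −0.38, adjusted p = 0.0793) or CADM1 (−0.35, adjusted p = 0.0561). In vehicle-treated MM1S cells NECTIN1 was at 323 ± 4.77 CPM and CADM1 at 466 ± 17.2 CPM (SD, n = 2 each).

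Death receptors, through which NK and T cells also kill, were read beside all genes, of which 49% passed the threshold after TAK-981 in MM1S and 53.4% in MM1R. Of 6 tested, 2 rose and 2 fell in MM1S, and 3 rose and 2 fell in MM1R. TNFRSF10C, among those that rose in MM1R, had 3 and 1 counts there with vehicle and 9 and 6 with TAK-981. It reached 10 counts only with combo in MM1S, at 10 and 14. It thus passed the filter on low counts only through a group that received TAK-981, so its rise is given as counts. TNFRSF10B (TRAIL-R2) rose by 0.69 in MM1S (adjusted p = 8.47e-08), the decoy receptor TNFRSF10D by 1.13 in MM1R (adjusted p = 3.06e-07), and TNFRSF1A fell by 0.64 in MM1R (adjusted p = 1.98e-07).

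Of 5 tested genes linked to shedding of MICA and MICB from the cell surface, 1 rose and 2 fell after TAK-981 in MM1S, and 1 rose and 3 fell in MM1R, where 23.7% and 27.6% of all genes fell. PDIA6, a disulphide isomerase that acts on MICA before its cleavage, fell by 0.61 in MM1R (adjusted p = 4.98e-08), and the metalloproteinase ADAM9 by 0.47 in MM1S (adjusted p = 7.79e-06). MMP9, the 1 gene that rose in each line, was near the floor with vehicle, at 1 and 1 counts in MM1S and 2 and 3 in MM1R. It had 17 and 14 counts and 29 and 32 counts after TAK-981. With Dex alone it had 4 and 1 counts in MM1S and 2 and 1 in MM1R. It thus passed the filter on low counts only through groups that received TAK-981, so its rise is given as counts. Dex in MM1S lowered 4 of these 5 genes and raised 0, beside 21.5% and 20.8% of all genes.

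**Figure D4:**
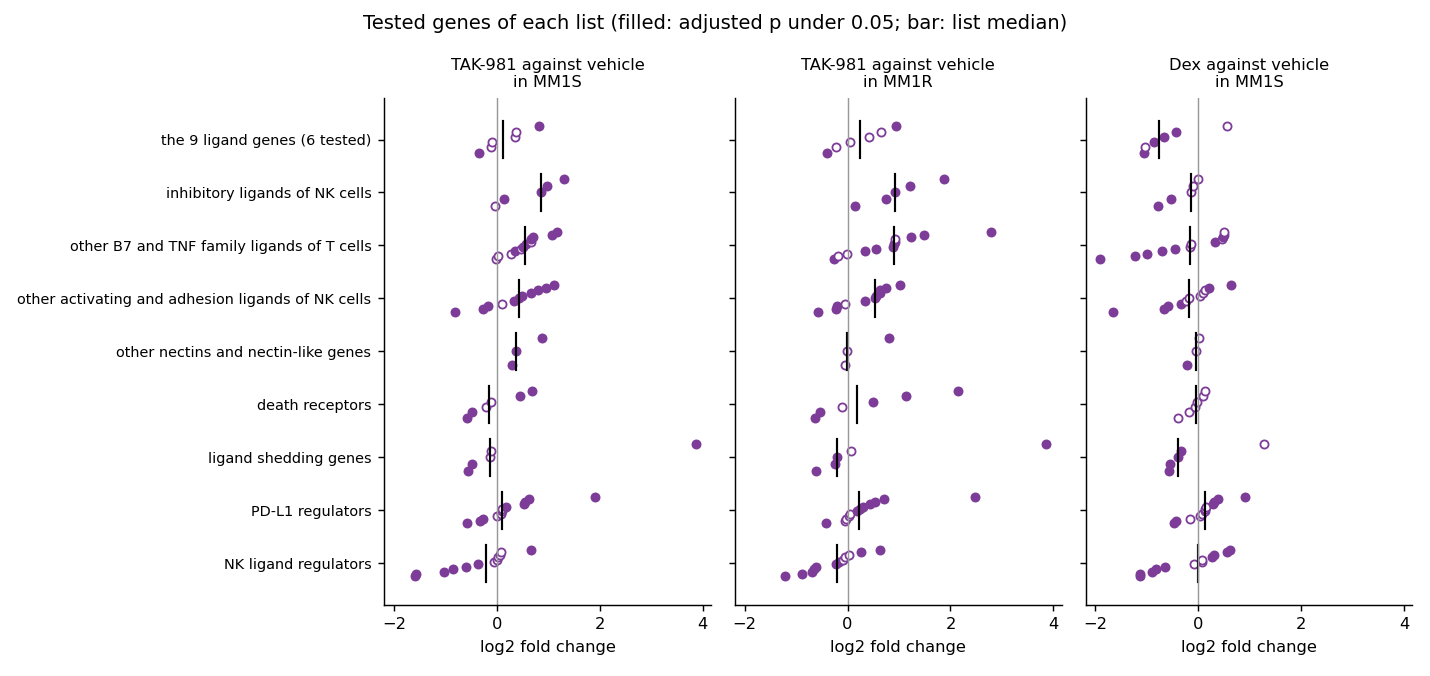
Log2 fold change of each tested gene (points, filled for an edgeR adjusted p under 0.05) in the 9 ligand genes and 8 related lists, with the list median as a bar, for TAK-981 in MM1S, TAK-981 in MM1R and Dex in MM1S. After TAK-981 the filled points of the genes listed as inhibitory NK ligands, 4 of 5 in MM1S and 5 of 5 in MM1R, lie to the right of 0. After Dex 4 of the 6 tested ligand genes lie to the left with filled points. The point farthest right among the shedding genes is MMP9, whose fold against a vehicle level near 0 depends on the prior count.

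Transcription and signalling genes known to act on PD-L1 were read next. Of 12 tested, 5 rose and 3 fell after TAK-981 in MM1S, and 7 rose and 1 fell in MM1R, where 49% and 53.4% of all genes passed in either direction. IRF1, an interferon-induced transcription factor, rose by 0.64 in MM1S and 0.70 in MM1R, with adjusted p = 2.55e-07 and 7.56e-08. STAT3 rose by 0.55 in MM1S (adjusted p = 2.66e-07). After Dex in MM1S IRF1 gave 0.07 (adjusted p = 0.436). Whether any of these genes took part in the change of CD274 was not tested.

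Of 12 regulators of NK ligands, 1 rose and 6 fell after TAK-981 in MM1S, and 2 rose and 7 fell in MM1R, where 23.7% and 27.6% of all genes fell. CHEK1 and CHEK2, kinases of the DNA damage response that raises NKG2D ligands, fell by 1.58 and 1.03 in MM1S (adjusted p = 7.58e-12 and 1.47e-08). IKZF3 (Aiolos), a repressor of MICA in myeloma cells, rose by 0.66 in MM1S (adjusted p = 4.50e-09), the 1 gene of the list to rise there. IRF4, of the same list, was chosen after its values were seen. It fell by 0.66 in MM1R (adjusted p = 3.13e-08). In MM1S its level went from 1226 ± 39.9 to 808 ± 47.4 CPM (SD, n = 2 each). Dex in MM1S raised 4 and lowered 5 of the 12, beside 20.8% and 21.5% of all genes.

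The receptors of these ligands belong to NK and T cells, yet 4 of 12 were abundant enough to be tested in these myeloma lines. TIGIT, the inhibitory receptor of PVR, was at 31.6 ± 2.84 CPM in vehicle-treated MM1S cells and 35.3 ± 0.601 in MM1R (SD, n = 2 each), and CD226 at 4.23 ± 0.468 and 2.37 ± 0.267 CPM. After TAK-981 TIGIT fell by 0.32 in MM1R (adjusted p = 0.00279), and CD226 by 0.71 in MM1S (adjusted p = 0.0202). PDCD1, which encodes PD-1, had 73 and 96 counts in vehicle-treated MM1S cells and 0 in all 8 MM1R libraries, so that it was at least 33.7-fold lower in vehicle-treated MM1R cells when set against 3 counts per library. After Dex in MM1S PDCD1 had 44 and 34 counts, a fall of 1.06 (adjusted p = 0.00265). KLRC1, which encodes NKG2A, had 33 and 28 counts in vehicle-treated MM1R cells and 4 and 5 in MM1S. KLRK1, which encodes NKG2D, had 0 counts in every library, as did the T and NK cell markers CD3D and NKG7. CD3E, another T cell marker, had 65 and 61 counts in vehicle-treated MM1S cells and 109 and 110 in MM1R, and the part of other cells in these receptor counts was not tested.

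Last, the genes whose levels moved most like CD274 over the 16 libraries were sought, by Pearson's correlation of log2 CPM centred within each line, as CD274 was the member past the threshold for TAK-981 in both. They were CLIC2 (r = 0.97), DOK5 (r = 0.96) and ARRDC3 (r = 0.96). The points share libraries, treatments and scaling, and the values are a description. Among the 6 ligand genes the pairs most alike on this scale were MICB with PVR (r = 0.72) and MICA with PVR (r = 0.69), and CD274 and PVR gave −0.03.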

How the data were processed

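RNA-seq counts per gene were deposited by the authors as 1 table of raw counts for 16 libraries, made according to the submitters' processing notes with bcl2fastq 2.18.0.12, STAR 2.6.0, HTSeq 0.6.0, edgeR 3.28.1 and the hg19 build. Small RNA libraries of the study were not analysed here. Whether HTSeq used strand and how it treated reads with several matches are not given in the sources used here. Groups came from the sample labels, which give no time for vehicle.

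The 9 ligand genes and the lists of related genes were chosen with earlier results of these data known. Genes were kept by edgeR's filterByExpr with its default minimum count of 10, scaled by TMM, and fitted with edgeR 4.0.16 (R 4.3.3, limma 3.58.1) as means of 8 groups over all 16 libraries. Robust quasi-likelihood F tests were adjusted by Benjamini-Hochberg over the 14215 genes of each of 15 comparisons, with a threshold of 0.05. All 9 ligand genes are named. From each list the text names up to 3 genes with the smallest adjusted p for TAK-981 in either line, and genes of lists with fewer than 5 measured. Genes that the rule picks from the cell marker and drug check lists are not named, apart from CD3E and IRF4. NR3C1, IRF4, CD58, CD48, SLAMF7, PDCD1LG2 and TNFRSF10C were added with their values known. The values of 1 other list gene that the rule names are not reported here. Alternatives were RLE scaling, scaling by library size only, fitting all genes with a count, a replicate block, DESeq2 1.42.0, fitting the compared groups alone, a log2 fold change of at least 1, each library left out in turn, and for likeness another prior count than 2. Precision is limited by 2 libraries per group and, for genes near 3 counts, by depth. Promoters were taken from RefSeq (GRCh38.p14), where all 9 genes matched, and gene positions from the table.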

Additional observations from a re-analysis of the deposited data

Results flagged for a closer look

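The responses of MM1R and MM1S differed by an interaction test (edgeR, adjusted over all genes) for 5 pairs of gene and drug. For Dex the difference in log2 fold change, MM1R minus MM1S, was 0.86 for MICA, 0.81 for MICB, 0.38 for PVR and 1.07 for CD274, with each gene lower after Dex in MM1S. For TAK-981 it was 0.39 for MICB, which fell in MM1S. Each difference compares 1 line with 1 other line, so line and resistance cannot be told apart.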

How the results depend on the processing

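Over the member values with all libraries kept, 582 kept their direction and their side of the threshold, 27 fell short of it, 2 newly passed it and 0 turned direction. Most of those 27 came from also requiring an absolute log2 fold change of 1 or more, under which 0 members remained past the threshold for TAK-981 in either line, 1 for Dex in MM1S, 0 for combo against vehicle in either line, 0 for combo against Dex in either line, 1 for combo against TAK-981 in MM1S, 1 for MM1R against MM1S, 0 for the line by TAK-981 test and 1 for the line by Dex test. Under that setting 1412, 1369 and 1081 of all 14215 genes passed for TAK-981 in MM1S, TAK-981 in MM1R and Dex in MM1S, 2509 and 1270 for combo in MM1S and MM1R, 1400 and 1196 for combo against Dex in MM1S and MM1R, 980 for combo against TAK-981 in MM1S, 1256 for MM1R against MM1S, 80 for line by TAK-981 and 918 for line by Dex. For combo against Dex in MM1S, 2 members passed with library size only and 2 with the replicate block, and for the line by TAK-981 test 0 passed in a fit restricted to the compared groups. The cause was not tested.

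With each library left out in turn, a group of 1 was assumed to vary like the other groups, and 1367 member values stayed as they were, 32 fell short of the threshold, 2 newly passed it and 39, all of them not past the threshold, turned direction. The number of members past the threshold ran from 1 to 2 for TAK-981 in MM1S, 3 to 4 for Dex in MM1S, 2 to 3 for combo in MM1S, 0 to 2 for combo against Dex in MM1S and 1 to 3 in MM1R, 2 to 4 for MM1R against MM1S, 0 to 1 for line by TAK-981 and 2 to 4 for line by Dex, and was 2, 2 and 3 throughout for TAK-981 in MM1R, combo in MM1R and combo against TAK-981 in MM1S.

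The log2 fold changes that turned, over these fits, had the following ranges. For TAK-981 against vehicle in MM1S ULBP3 ran from −0.072 to 0.88. For Dex against vehicle in MM1R ULBP3 ran from −0.095 to 0.046 and CD274 from −0.15 to 0.16. For combo against vehicle in MM1S CD274 ran from −0.47 to 0.15 and ULBP3 from −0.87 to 0.30. For combo against vehicle in MM1R MICB ran from −0.036 to 0.064 and MICA from −0.23 to 0.061. For combo against Dex in MM1R NCR3LG1 ran from −0.27 to 0.41. For combo against TAK-981 in MM1R PVR ran from −0.055 to 0.045, ULBP3 from −0.48 to 0.20 and MICB from −0.087 to 0.013. In the line by TAK-981 test CD274 ran from −0.22 to 0.46, ULBP3 from −0.24 to 0.71 and NCR3LG1 from −0.25 to 0.31. In the departure test in MM1S CD274 ran from −0.30 to 0.38, NCR3LG1 from −0.20 to 0.79 and PVR from −0.28 to 0.022. In the departure test in MM1R CD274 ran from −0.11 to 0.20, MICB from −0.033 to 0.066, MICA from −0.18 to 0.11, PVR from −0.0015 to 0.13 and ULBP3 from −0.45 to 0.22.

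The share of higher genes among all genes called was 36.6% in the test of departure from the sum in MM1S and 53.2% with library size only. In the line by TAK-981 test 592 genes passed, 1313 with no filter on low counts and 2061 with the replicate block, and in the departure test in MM1S 2125 passed, 3579 with the block and 779 in a fit restricted to the compared groups. Without the filter 30 genes passed for Dex in MM1R, 9 for combo against TAK-981 there (3 with the compared groups alone) and 19 for the departure test. Equal replicate numbers were not taken to pair libraries: their deviations from the group means correlated at 0.02 to 0.26 in MM1S and −0.01 to 0.08 in MM1R. Such low values cannot exclude an effect shared by libraries of the same replicate number. With the replicate block PVR in combo against Dex in MM1S was −0.21 (edgeR adjusted p = 0.0401), and no other member's call changed.

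ULBP1, ULBP2 and NECTIN2, with at most 9 counts in a library, were too low to be tested at this depth, where 3 counts are 0.124 to 0.186 CPM. Paralogs of the MIC and ULBP families may share reads. With 2 libraries a group, single libraries decided the calls of CD274 in MM1S for TAK-981, for Dex and for combo against Dex, and protein at the cell surface was not measured.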
